A study of Mus musculus with 8 samples.

Results

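The cells described here are AE9a-driven acute myeloid leukaemia cells with Tet2 held down by an inducible hairpin, taken from the spleens of 3 secondary recipient mice on doxycycline and PBS. They were chosen by their labels alone (Tet2 knockdown, PBS, secondary transplant) and make up 3 of the 8 RNA-seq libraries of the series: mice 16, 17 and 19. AE9a is a shortened RUNX1-RUNX1T1 (AML1-ETO) fusion. TET2 is a dioxygenase that oxidises 5-methylcytosine and is often lost in myeloid leukaemia.

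The study started from cKit+ marrow of C57BL/6J mice infected with a retrovirus for AE9a and the Tet2 hairpin (genotype label RTA shTet2), which all 8 libraries share. Each recipient received 50000 leukaemic cells together with 500000 wild-type support cells of the marrow, and primary hosts were lethally irradiated C57BL/6J mice aged 6 to 8 weeks. The age of the secondary hosts is not stated in the labels. Of the other libraries, mice 21 and 23 were secondary recipients without doxycycline that had PBS and bear the label Tet2 restored. Mice 28 and 30, also secondary, had doxycycline with ascorbate, and mouse 12 was a primary recipient fed doxycycline. Each library is a separate moribund mouse, so the spread is one between mice. The labels call the RNA source AE9a+ leukaemic cells of the spleen, but do not say how these cells were separated from host and support cells, and no library lacks the hairpin. Whether the mice descended from 1 primary leukaemia is not stated either.

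Blood cells mature along lineages that switch on distinct gene programmes. GATA1, TAL1 and KLF1 act in red cells and, with GATA2, in mast cells and megakaryocytes, whereas PU.1 (Spi1) and the C/EBP factors act in granulocytes and monocytes. RUNX1 is needed for blood formation, and its fusion to RUNX1T1 brings repressor complexes to RUNX1 sites. Human leukaemias with this fusion usually keep KIT, CD34 and MPO.

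Levels are the authors' FPKM, which scale fragments to transcript length and library size and so allow genes to be ordered within a library. A gene was called detected at 1 FPKM or more in each of the 3 libraries, silent under 0.1 FPKM in each, and low otherwise. Values are given in the order mouse 16, 17, 19, and means are ± SD over these 3 mice. By this scale 9125 of 52459 genes were detected, 6203 were low and 37131 were silent. Depth was 24.5, 24.0 and 27.1 M counts (18.1 to 34.2 M over all 8 libraries), and a count of 0 allows up to 0.123, 0.125 and 0.111 CPM. Mitochondrially encoded genes held 22.4, 22.3 and 25.7% of FPKM. Across the 6778 genes with a mean of at least 5 FPKM, log2(FPKM + 0.1) had a Pearson r of 0.961 between mice 16 and 17, 0.975 between 16 and 19, and 0.981 between 17 and 19. These values are across genes, which are not independent replicates.

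Of the 5 marker genes given for this leukaemia, Kit and Gata2 were detected, Runx1t1, whose product is the fusion partner, was detected, and Cd34 and Mpo were near zero. Kit, the stem cell factor receptor (chr5:75574916-75656722, GRCm38), stood at 17.1, 6.04 and 14.1 FPKM. Mouse 17 was the low one. Gata2, a factor of progenitors and mast cells, stood at 3.12, 4.75 and 2.19 FPKM. Runx1t1 (chr4:13743436-13893649) hardly differed among the mice, with 13.5, 12.6 and 13.2 FPKM. The tables do not separate fusion reads from reads of the normal Runx1t1 and Runx1 loci. Cd34, a sialomucin of stem and progenitor cells, was at 0.37, 0.25 and 0.12 FPKM (67, 45 and 24 counts). Mpo, the myeloperoxidase of neutrophil primary granules (chr11:87793581-87804413), was at 0.02, 0.46 and 0.08 FPKM (2, 39 and 8 counts). Thus 2 of the 5 markers were not borne out by the data, and the group is described below by its leading genes. In bulk RNA, fewer cells of a type and less RNA per cell cannot be told apart. The leucocyte common antigen CD45 (Ptprc) was also low, at 0.28, 0.34 and 0.53 FPKM. The other 5 libraries ran from 0.09 to 0.31 FPKM for Ptprc, so a low level was seen in each of the 8. Tet2 itself stood at 0.74, 0.75 and 0.79 FPKM, and at 0.81 and 1.36 in mice 21 and 23, where the hairpin was switched off per the labels. Mice 28 and 30 had 0.80 and 0.68, and the primary mouse 0.55. Mouse 21 thus lay about level with the knockdown mice.

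The most abundant transcripts combined haemoglobin and carbonic anhydrase genes with those of the cytoskeleton and of protein synthesis. The mitochondrial gene mt-Nd1 was the highest of all, at 18389, 22289 and 22005 FPKM. With mitochondrially encoded and cytosolic ribosomal protein genes set aside, the highest was Hbb-bs, the adult beta globin (chr7:103826534-103828096), at 5810, 12051 and 4549 FPKM. Mouse 17 held the highest level of both Hbb-bs and the alpha globin Hba-a1 (1244, 2243 and 955 FPKM). Carbonic anhydrase genes of red cells were also among the leaders. Car1 was at 1337, 2450 and 1498 FPKM and Car2 at 1227, 1224 and 733 FPKM, low in mouse 19 only. Among the remaining leaders were Fth1, the ferritin heavy chain (2844 ± 271 FPKM), Eef2, the elongation factor of translation (1932 ± 56.6), and B2m, the light chain of MHC class I (1872 ± 302). Srgn, the proteoglycan core of secretory granules, stood at 770 ± 67.8 FPKM. Lgals9 (galectin-9) was at 636 ± 23.9 FPKM, and Mt2, a metal-binding metallothionein, at 607 ± 70.1. Actb, Eef1a1, Hsp90ab1, Arhgdib, Tubb5, Rack1, Eif5a, Gpx1 and Pfn1 completed the 20 with means between 545 and 1734 FPKM, beside Mir6236. Mir6236, a short annotated locus, is uncertain, at 819, 2143 and 2155 FPKM. The 10 leading genes held 8.74, 11.9 and 8.95% of non-mitochondrial FPKM, so mouse 17 was the most concentrated. Globin genes have near-identical copies (Hba-a1 and Hba-a2, Hbb-bs and Hbb-bt), and how reads shared by copies were counted is not given in the sources used here.

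Among 209 measured genes of a transcription factor panel, 136 were detected, 35 were low and 38 were silent. The cold-shock factor Ybx1 led, at 264, 295 and 270 FPKM. Gfi1b, a repressor of red cell and megakaryocyte development (chr2:28609450-28621982), was the most abundant lineage factor, at 231, 233 and 241 FPKM. The 3 mice lay within 1.04-fold of each other for Gfi1b. The remaining libraries spread more widely, with 111 in the primary mouse, 333 and 178 in mice 21 and 23, and 78.6 and 86.4 in mice 28 and 30. Its close relative Gfi1, which acts in granulocytes and lymphocytes, was silent (0, 2 and 0 counts).

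A group of 16 factors around GATA1, TAL1 and KLF1, drawn up after values had been seen, was detected in full (16 of 16). Klf1, the activator of adult beta globin, was at 160, 170 and 147 FPKM, and Gata1 at 104, 122 and 104. The complex partners of TAL1 were likewise high in each mouse, with means of 98.9 FPKM for the bridging factor Ldb1, 95.0 for Lmo2, 75.6 for Tal1, 66.9 for Lyl1 and 53.8 for the GATA1 cofactor Zfpm1 (FOG1). Nfe2, the factor of globin and platelet genes, stood at 82.8, 115 and 86.8 FPKM. Summed over the 16 genes the level was 1040, 1191 and 1063 FPKM, with mouse 17 slightly above the other two.

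Of 12 myeloid differentiation factors, 4 were detected and 4 were silent (Gfi1, Cebpd, Cebpe and Mitf). This group and those below were also drawn up after values had been seen, so the counts of groups are not set against each other. Spi1 (PU.1) was at 23.8, 33.9 and 31.4 FPKM, the highest of this group. Cebpg and Cebpb followed with means of 15.1 and 8.65 FPKM. Cebpa, the factor that commits progenitors to granulocytes, was at 0.05, 0.09 and 0.24 FPKM (3, 6 and 18 counts). RUNX1 is the normal counterpart of the fusion, and Runx1 was at 19.5, 16.6 and 19.3 FPKM, beside its partner Cbfb at 55.6, 39.3 and 59.4.

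Stem cell factors of the HOX, MEIS and MECOM groups were mostly absent: 11 of 19 were silent and 5 were detected. Hoxa5, Hoxa7, Hoxa9, Hoxa10, Hoxb2, Hoxb6, Meis1, Hlf, Mecom, Erg and Sox4 were the silent ones. Hoxa9 had 2, 0 and 2 counts and Meis1 had 0, 1 and 0, although both are high in many other myeloid leukaemias. Hoxb4 was at 2.24, 2.43 and 2.61 FPKM. The Sox4 row is uncertain because most of its exonic bases are shared with another gene.

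General regulators of growth were high, with Atf4, the factor of the amino acid response, at 180 ± 13.7 FPKM, Myc at 136 ± 16.5, Trp53 (p53) at 125 ± 11.5 and the MYC partner Max at 82.2 ± 2.61. Of 14 interferon regulatory and STAT factors, 11 were detected. Irf7, the master factor of the interferon response, led them at 90.6, 118 and 155 FPKM, lowest in mouse 16 and highest in mouse 19. The primary mouse had 11.2 FPKM of Irf7, and the other secondary mice 65.1 to 122. Lymphoid factors were mostly off, with 8 of 14 silent, among them Ebf1, Bcl11b, Lef1, Tbx21 and Eomes. The exception was Gata3, a factor of T cells that mast cells can also express, at 19.8, 12.3 and 21.5 FPKM. Elf1 was the last of the 20 highest factors, at 49.6 FPKM, and Rela (49.3 FPKM) lay just below it, so the end of this ranking is not sharp.

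**Figure D1:**
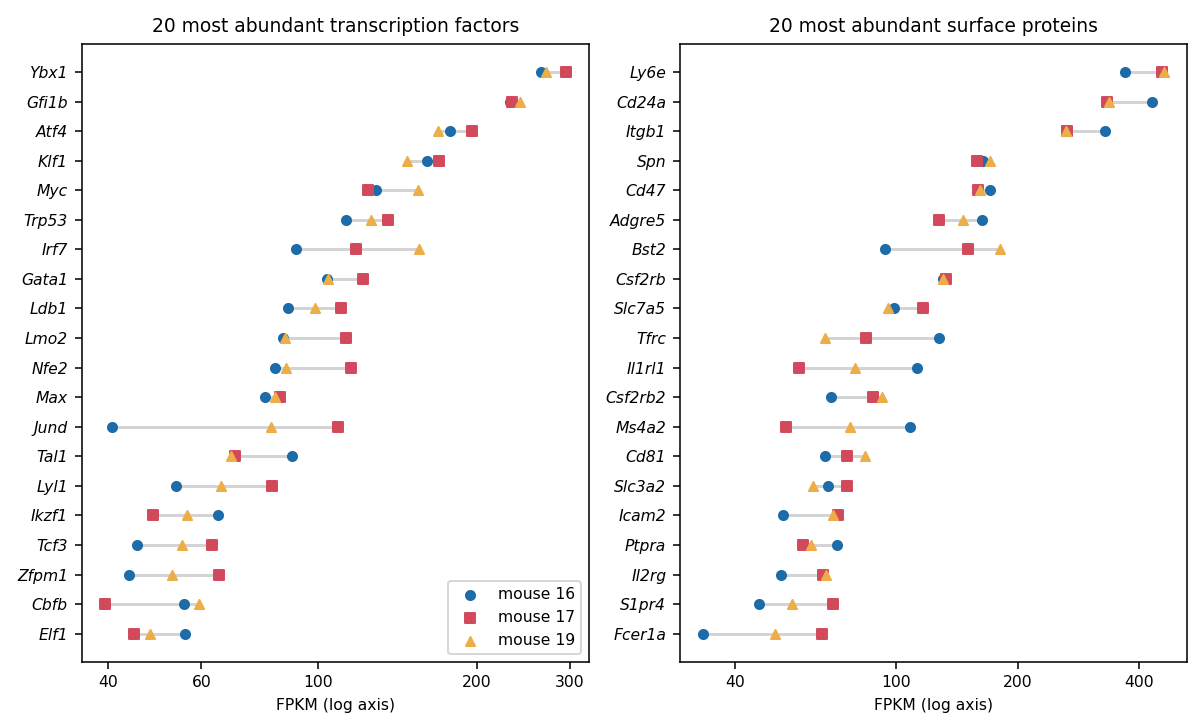
FPKM on a log axis of the 20 most abundant members of the transcription factor panel (left) and of the surface protein panel (right); each symbol is 1 mouse and the grey line spans the 3 mice. Gfi1b and Csf2rb show almost no spread, while Jund, an uncertain value because it shares exonic bases with another gene, runs from 40.7 to 109 FPKM and Fcer1a from 33.4 to 65.6 FPKM.

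Of 250 measured surface proteins, 89 were detected, 94 were low and 67 were silent. The leaders were broad leucocyte and red cell antigens, beginning with the GPI-anchored Ly6e (428 ± 51.4 FPKM), Cd24a (heat stable antigen, 367 ± 54.1) and the integrin beta chain Itgb1 (286 ± 36.6). Spn (CD43) and Cd47, the signal that inhibits phagocytosis, were close together at 165 ± 5.97 and 164 ± 6.21 FPKM. Bst2 (tetherin), which interferon induces, was at 94.1, 150 and 181 FPKM, in the same order of mice as Irf7. The amino acid transporter chains Slc7a5 and Slc3a2 stood at 104 ± 11.2 and 68.8 ± 6.77 FPKM. Tfrc, the transferrin receptor through which erythroid cells take up iron, was at 128, 84.5 and 67.0 FPKM, highest in mouse 16.

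Cytokine receptors were detected for 25 of 56 members and silent for 15. Csf2rb, the shared beta chain for IL-3, IL-5 and GM-CSF, stood at 131, 133 and 131 FPKM. Its mouse-specific copy Csf2rb2, the IL-3 chain, was at 69.2, 87.8 and 92.6, though reads of 2 such similar genes may be split between them. The matching alpha chains were far lower: Csf2ra was at 1.87, 2.46 and 3.04 FPKM, Il3ra at 0.16, 0.33 and 0.31, and Il5ra was silent. Il1rl1 (ST2, the IL-33 receptor of mast cells and basophils) was at 113, 57.7 and 79.2 FPKM, and the common gamma chain Il2rg at 61.6 ± 8.43. Epor, the erythropoietin receptor, was at 22.6, 37.1 and 25.9 FPKM.

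Receptors of granulocytes and monocytes were scarce. Csf3r, the G-CSF receptor, was at 0.04, 0.16 and 0.19 FPKM, and Flt3, the receptor of early progenitors, at 0.06, 0.04 and 0.10. Csf1r, the M-CSF receptor, was at 0.70, 1.24 and 2.46 FPKM, highest in mouse 19. CD33 (Cd33), a myeloid antigen, was silent with 5, 4 and 9 counts. Of 33 chemokine and other G protein coupled receptors 9 were detected and 10 silent. They included Adgre5 (CD97) at 146 ± 18.1 FPKM and S1pr4, a sphingosine phosphate receptor, at 57.1 ± 11.9. Integrins were detected for 8 of 14 members, Fc, lectin and pattern receptors for 7 of 29, and receptors of T, B and NK cells for 1 of 21. The platelet integrin chain Itga2b (CD41) was low, at 0.13, 0.19 and 0.10 FPKM, and its partner Itgb3 was silent.

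Across 14 lineage lists, the erythroid list stood out by its level, and mast cell genes were the next best represented. Each list is described by counts and values without a test, because the lists were drawn up with results of these data known. Of 631 list and panel members, counted once each, 166 were silent. Silent members had a highest count of 38 in any of the 3 libraries, with a median of 2. Of them, 3 (Gp1bb, Sox4 and Tagln) share most of their exonic bases with another gene, and their low values are uncertain.

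**Figure D2:**
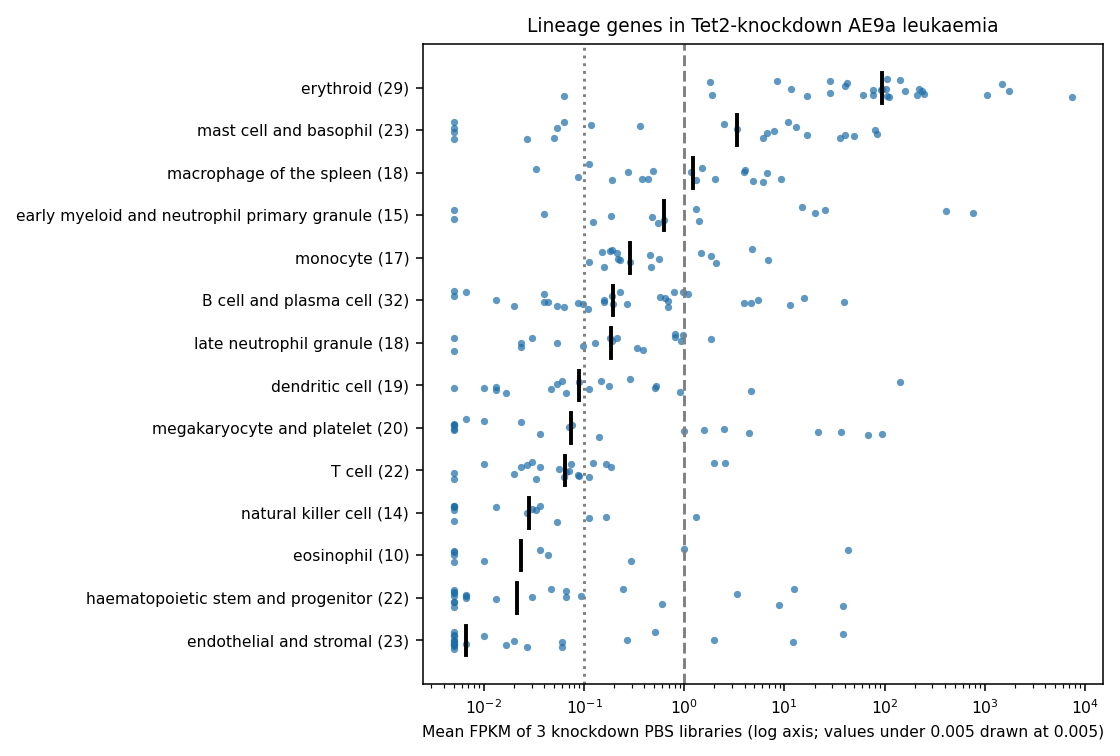
Mean FPKM over the 3 knockdown PBS libraries on a log axis for the measured members of 14 lineage lists, with 1 point a gene and a black bar at the list median; the dotted and dashed lines mark 0.1 and 1 FPKM. The erythroid median is 93.6 FPKM and the mast cell and basophil median 3.35, while the endothelial and stromal median is 0.007.

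Of 29 measured erythroid genes, 28 were detected, and the remaining one was the embryonic globin Hbb-bh1 (0.13, 0 and 0.06 FPKM). They held 3.69, 5.64 and 2.75% of all FPKM. The genes ran through the whole programme, from the factors above to haem synthesis, membrane and globin. Fech, the last enzyme of haem synthesis, was at 277, 234 and 205 FPKM. The Rh-associated glycoprotein Rhag, a red cell membrane protein, was at 254, 194 and 184 FPKM. In both genes mouse 16 was highest and mouse 19 lowest. Other members were lower and less even: Alas2, the erythroid enzyme that starts haem synthesis, was at 40.7, 35.7 and 10.1 FPKM, and Slc4a1 (band 3, chr11:102348824-102366203) at 25.4, 7.20 and 2.18. Epb42 (protein 4.2), which binds band 3, was at 2.82, 1.53 and 1.13 FPKM. Mouse 19 was lowest for each of these 3. Whether erythroid transcripts came from leukaemic cells or from red cell precursors of the spleen was not tested.

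Of 23 mast cell and basophil genes, 13 were detected and 7 were silent. Both specific chains of the high-affinity IgE receptor were present. Ms4a2, its beta chain, was at 108, 53.6 and 77.2 FPKM, and Fcer1a, its alpha chain (chr1:173221284-173227214), at 33.4, 65.6 and 50.2. The order of the mice was opposite for the pair: mouse 16 was highest for Ms4a2 and lowest for Fcer1a. Hdc, which makes histamine, was at 32.6, 29.0 and 46.3 FPKM. The granule proteases were led by Mcpt1 (22.9, 69.7 and 27.0 FPKM), followed by Mcpt2 (15.8, 22.1 and 12.98), Cma1 (12.0, 11.4 and 15.8) and the carboxypeptidase Cpa3 (6.85 to 16.0). The Mcpt genes are similar in sequence and their reads may be shared. Il4, a cytokine of basophils and mast cells, was steady at 6.35, 7.01 and 6.76 FPKM. The tryptases Tpsb2 (0 counts) and Tpsab1, and Hpgds, Gzmb, Cyp11a1, Slc6a4 and Mrgprb2, were silent. The basophil proteases Mcpt8 (0, 3 and 2 counts) and Prss34 (3, 2 and 6 counts) were near zero, so the list was present only in part.

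The promoters of erythroid and mast cell genes were searched for the letters that GATA factors recognise. The lists were drawn up with results of these data known, and whether GATA factors act at these genes was not tested. The 250 bases before the start of transcription in RefSeq (GRCm38.p6) were searched on both strands for AGATAA or TGATAA. These letters were present for 12 of 21 detected erythroid genes with a RefSeq promoter (57.1%) and 7 of 12 detected mast cell genes (58.3%), against 18.8% of all 27025 genes. Of the mast cell genes that were not detected, 2 of 8 held them (25.0%), and of all measured mast cell genes 9 of 20 (45.0%). Among all measured members of other lists, they were present for 5 of 14 megakaryocyte genes (35.7%), 3 of 13 T cell genes (23.1%), 3 of 17 late neutrophil genes (17.6%), 3 of 18 stem cell genes (16.7%), 2 of 20 B cell genes and 0 of 12 primary granule genes. The KLF1-type letters CCACACCC were in 1 of the 21 erythroid promoters (4.76%, against 3.68% of all genes), and the RUNX letters TGTGGT in 3 of them (14.3% against 15.9%). In the detected mast cell genes the RUNX letters were present for 5 of 12 (41.7%), and CCACACCC for 0 of 12. Mast cell genes that were not detected held the RUNX letters no less often, in 5 of 8 (62.5%). A match is a description of letters and not a binding site. Below are the detected members of highest level with 1 RefSeq start, a GATA match and no exon of GENCODE vM21 in the window. They were picked for a GATA match, so its presence in them is no result. Shown beside them is the silent protease gene Ctsg (2, 1 and 0 counts), which had no GATA match. The genes are Rhd, a red cell Rh antigen (chr4:134864286-134864535, plus strand), Epor (chr9:21963577-21963826, minus strand), Ms4a2 (chr19:11623720-11623969, minus), Fcer1a (chr1:173227230-173227479, minus) and Ctsg (chr14:56102575-56102824, minus). Each is written 5′ to 3′ on the gene's strand, ending at the base before the start, and capitals mark the GATA letters or their complement.
Rhd: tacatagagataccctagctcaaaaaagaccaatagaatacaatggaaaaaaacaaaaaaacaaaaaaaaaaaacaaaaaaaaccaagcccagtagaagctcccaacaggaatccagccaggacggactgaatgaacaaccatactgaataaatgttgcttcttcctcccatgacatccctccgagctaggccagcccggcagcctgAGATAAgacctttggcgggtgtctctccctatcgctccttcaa
Epor: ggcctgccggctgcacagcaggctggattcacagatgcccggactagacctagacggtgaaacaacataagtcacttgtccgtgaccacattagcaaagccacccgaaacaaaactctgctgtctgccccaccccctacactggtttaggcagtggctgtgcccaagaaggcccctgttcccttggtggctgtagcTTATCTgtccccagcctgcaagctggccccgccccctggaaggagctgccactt
Ms4a2: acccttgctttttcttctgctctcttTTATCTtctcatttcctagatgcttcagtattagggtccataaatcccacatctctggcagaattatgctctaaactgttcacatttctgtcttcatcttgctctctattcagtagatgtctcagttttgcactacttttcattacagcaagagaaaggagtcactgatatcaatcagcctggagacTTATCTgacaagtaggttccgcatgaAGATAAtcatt
Fcer1a: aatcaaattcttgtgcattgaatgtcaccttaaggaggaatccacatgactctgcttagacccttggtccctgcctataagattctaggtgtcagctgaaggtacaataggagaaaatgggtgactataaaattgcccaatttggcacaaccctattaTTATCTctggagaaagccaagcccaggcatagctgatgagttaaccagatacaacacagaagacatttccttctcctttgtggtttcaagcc
Ctsg: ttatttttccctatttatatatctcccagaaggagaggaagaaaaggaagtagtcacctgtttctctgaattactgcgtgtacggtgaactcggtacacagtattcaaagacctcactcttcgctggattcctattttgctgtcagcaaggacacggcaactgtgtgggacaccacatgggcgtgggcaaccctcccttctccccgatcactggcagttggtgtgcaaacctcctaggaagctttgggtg
The GATA match began 43 bases before the start in Rhd, 54 in Epor and 92 in Fcer1a. RUNX letters or their complement, not in capitals, began 166 bases before the start in Epor, 14 in Fcer1a and 79 in Ctsg. Ms4a2 held 3 GATA matches, at 224, 37 and 11 bases before the start.

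Megakaryocyte and platelet genes were split, with 7 of 20 detected and 9 silent. The detected ones were Nfe2, the platelet glycoproteins Gp5 (56.9, 74.1 and 75.3 FPKM), Gp1ba (20.1, 22.8 and 21.5) and Gp9 (1.28, 1.29 and 2.14), and Plek, Rab27b and Treml1. Other platelet genes were off: Ppbp, Gp6, Vwf, Selp, Tubb1, Itgb3, Thbs1 and Gp1bb were among the silent ones. The Gp1bb row is uncertain because most of its exonic bases are shared with another gene. The chemokine Pf4 had 2, 0 and 0 counts. Of 10 eosinophil genes 7 were silent (Prg2, Prg3, Epx, Ear1, Ear6, Il5ra and Alox15). The surface lectin Siglecf, which eosinophils carry, was nevertheless at 37.4, 39.2 and 52.5 FPKM.

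Stem and progenitor genes were mostly silent (12 of 22), and the 4 detected were Myb, Kit, Cd48 and Gata2. Myb, a factor of immature blood cells, was at 46.5, 30.9 and 38.7 FPKM. Slamf1, Meis1, Hoxa9, Hlf, Mecom, Erg, Sox4, Prom1, Emcn, Robo4 and Tek were among the silent ones.

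Primary granule genes, which mark early neutrophil development, were detected for 6 of 15 members. The detected ones included Srgn and the chaperone Calr (425, 430 and 377 FPKM), which most cells express, the cystatin Cst7 (15.9, 29.4 and 30.7 FPKM), Serpinb1a (18.4, 12.4 and 30.5) and Ap3s1. The proteinase gene Prtn3 was at 1.04, 1.64 and 1.56 FPKM. The elastase gene Elane was low, at 0, 0.37 and 0 FPKM. The protease gene Ctsg, the factor gene Cebpe and the ficolin gene Fcnb were silent. No late neutrophil gene of 18 was detected, and Mmp9, Cd177, Ly6g, Cxcr2, Trem1 and Padi4 were silent. Mouse 17 was the high one for several of the rest: S100a9 was at 0.46, 4.51 and 0.55 FPKM, S100a8 at 0.12, 2.45 and 0.36, and Ngp at 0, 2.26 and 0.15. The sum over the list was 3.92, 13.8 and 3.38 FPKM.

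Monocyte genes were low rather than silent (14 low and 3 detected of 17). Ctss (4.52, 6.00 and 10.3 FPKM) and Lyz2 (3.23, 4.25 and 6.71), a protease and a lysozyme of phagocytes, were highest in mouse 19. Spleen macrophage genes were detected for 7 of 18 members and silent for Marco. The complement chains C1qa (3.98, 6.67 and 7.81 FPKM) and C1qb (5.09, 11.6 and 11.4) led the list with the iron exporter Slc40a1 (10.02, 4.57 and 5.31). The sum over the macrophage list was 33.5, 44.6 and 50.7 FPKM, lowest in mouse 16.

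Lymphoid, dendritic and stromal genes were nearly all low or silent. Of 32 B and plasma cell genes 6 were detected, led by the kappa constant gene Igkc (16.5, 40.9 and 61.4 FPKM) and the MHC class II chaperone Cd74 (12.8, 15.8 and 18.8). Ighm was at 10.9, 10.5 and 12.4 FPKM. The B lineage genes Ebf1, Blk, Fcer2a, Cr2, Sdc1, Vpreb3, Igll1, Dntt, Rag1 and Rag2 were silent. T cell genes were detected only for the kinase Lck (2.40, 2.60 and 2.66 FPKM) and the CD3 zeta chain Cd247, although most exonic bases of Cd247 are shared with another gene. Silent T cell genes numbered 14: Cd3d, Cd3e, Cd3g, Cd8a, Cd8b1, Cd5, Cd2, Cd28, Lef1, Bcl11b, Il7r, Themis, Foxp3 and Cd6. Of 14 natural killer genes, 0 were detected and 11 were silent (Ncr1, Klrb1c, Klrd1, Klre1, Klrk1, Gzmb, Prf1, Tbx21, Eomes, Klra8 and Klra4). Dendritic genes were detected only for Bst2 and H2-Aa, and Zbtb46, Cd209a, Siglech, Klk1, Cox6a2 and Fscn1 were silent. Of 23 endothelial and stromal genes 18 were silent, among them Cdh5, Kdr, Pdgfra, Pdgfrb, Col1a2, Col3a1, Lum, Acta2, Cxcl12, Ccl19, Ccl21a, Cxcl13, Stab2 and Madcam1. The exceptions were Plvap (29.7, 44.7 and 41.2 FPKM) and Egfl7 (9.86, 14.01 and 12.96), both known from vessels.

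The 3 mice differed in a limited set of genes. Among the 6778 genes with a mean of at least 5 FPKM, 149 (2.20%) differed over 2-fold between the highest and the lowest mouse after 0.1 FPKM was added, and the median ratio was 1.23. These ratios have no test, since the mice form 1 group. Predicted genes, antibody segments and mitochondrial genes among them (28 of the 149) were only counted, and the rankings below leave them out. In 46 of the 149 genes mouse 16 stood apart on the low side and in 24 on the high side. The numbers were 27 and 22 for mouse 17, and 13 and 17 for mouse 19.

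Among the named genes, the adhesion receptor Adgrg7 (chr16:56724609-56795855) had the largest ratio, at 15.4, 0.78 and 1.03 FPKM. It was high in mouse 16 only. Among the other 5 libraries it was highest in the primary mouse, at 6.04 FPKM, and 0.09 to 2.88 elsewhere. Slc4a1 followed among the named genes, with the values above. Tnni3, the cardiac troponin I, was at 4.92, 0.85 and 9.79 FPKM, and the 4 other secondary libraries had 40.6 to 76.2. Tnni3 shares exonic bases with Dnaaf3 on the same strand, so its value is uncertain.

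Erythroid genes were part of this variation. Hbb-bt, the minor adult beta globin, was at 81.8, 124 and 23.8 FPKM, low in mouse 19 like Alas2. The erythroid list had a median log2 ratio of highest to lowest of 0.57 over 26 genes, against 0.30 over all 6778. The GATA, TAL1 and KLF1 factors had 0.36 over 14 genes. Mast cell genes had a median of 0.97 over 11 genes, and Il9r, the receptor for the mast cell growth factor IL-9, was at 20.03, 5.56 and 11.9 FPKM.

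Immediate early genes, which respond within minutes to stimulation, had a median log2 ratio of 1.21 over 8 genes. Egr1 was at 2.42, 13.7 and 2.78 FPKM, high in mouse 17. Fos was at 3.52, 18.5 and 13.5 FPKM and the small GTPase gene Rhob, also rapidly induced, at 6.46, 38.1 and 13.98. Jund ran from 40.7 FPKM in mouse 16 to 109 in mouse 17, though it is uncertain because most of its exonic bases (52.6%) are shared with another gene. The heat shock gene Hspa1b followed the same order (2.31, 10.1 and 5.28 FPKM). Mouse 16 was lowest and mouse 17 highest for these 5 named genes. The factor gene Klf10, also over 2-fold, went the other way, with mouse 17 apart on the low side (2.11-fold). Interferon regulatory and STAT factors had a median of 0.20 over 9 genes. Irf7 among them, and Bst2, which interferon induces, spread more widely, as given above.

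Of the other genes among the 20, 4 encode proteins of metabolism. Phgdh, the first enzyme of serine synthesis, was at 3.75, 11.2 and 1.36 FPKM, highest in mouse 17. Scd1, the desaturase of fatty acids, was low in mouse 17 (17.0, 2.73 and 14.9), as was the acyltransferase Mboat2 (8.68, 2.23 and 7.83). Gyg, the primer protein of glycogen, was low in mouse 19 (9.61, 11.5 and 2.92). The Fc receptor gene Fcgr4 (4.31, 8.53 and 22.4 FPKM) and the adaptor gene Tyrobp (2.59, 4.07 and 10.1), both used by phagocytes, were highest in mouse 19. The summed macrophage list was highest in mouse 19 as well, and its part in these differences was not tested. Igkc had the same order, and the inflammasome receptor Nlrp6 was high in mouse 17 (3.68, 12.9 and 3.43). The 2 small nucleolar RNAs among the 20, Snord32a and Snora31, rested on 6 to 35 counts a library and are uncertain. All 20 genes stayed over 2-fold with other library scalings, with 1 FPKM added and with the length trend below removed. They had been picked for the largest ratios, at least 3.56-fold, so this is a weak check.

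**Figure D3:**
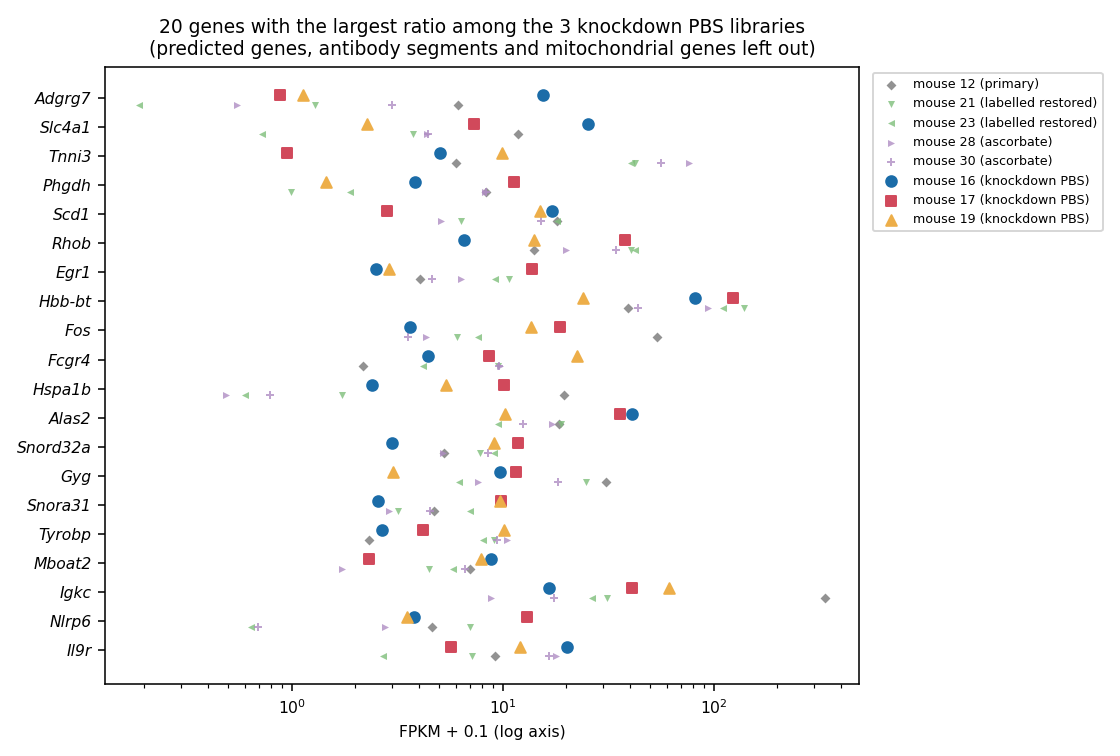
FPKM + 0.1 on a log axis of the 20 genes with the largest ratio among the 3 knockdown PBS libraries (large symbols), predicted genes, antibody segments and mitochondrial genes left out, with the other 5 libraries as small symbols. Adgrg7 spans 0.78 to 15.4 FPKM, with mouse 16 alone at the top, and Egr1, Rhob and Nlrp6 are highest in mouse 17.

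A broad trend with transcript length ran beneath the single genes. Over the 6778 genes, each gene's deviation from the 3-library mean had a Spearman rho of 0.51 with transcript length in mouse 16, −0.49 in mouse 17 and −0.10 in mouse 19. These are descriptions across genes. In mouse 16 the median deviation of the shortest decile was −0.17 and that of the longest 0.18 on the log2 scale. In mouse 17 it went from 0.17 to −0.14. With the trend removed 123 genes were over 2-fold, 103 of them among the 149. Kit, a long transcript, and the globins, which are short, lay on opposite sides in mouse 17. Between the highest and the lowest mouse Kit differed 2.79-fold and Hbb-bs 2.65-fold, and the part of length in this was not tested.

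**Figure D4:**
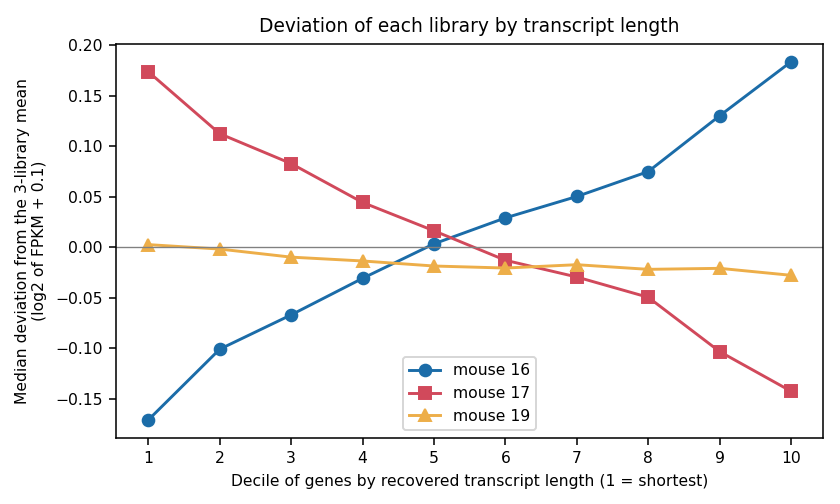
Median deviation of each library from the 3-library mean, in log2 of FPKM + 0.1, for deciles of the 6778 genes ordered by transcript length recovered from count and FPKM. Mouse 16 rises from −0.17 to 0.18, mouse 17 runs the opposite way from 0.17 to −0.14, and mouse 19 stays near 0.

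To show where the group differed from the rest, its 3 libraries were compared with the mean of the Tet2-restored and ascorbate groups (4 secondary libraries). Of the tested members, 7 of 16 spleen macrophage genes were higher in the knockdown PBS mice and 5 of 15 mast cell and basophil genes were lower. Both lists were drawn up with results of these data known, so these counts are descriptions and no support for a difference in the lists. By the quasi-likelihood test of edgeR with Benjamini-Hochberg adjustment, 829 of 12137 genes passed (6.83%), 508 higher (4.19%) and 321 lower (2.64%). The result rests on single libraries. Leaving out mouse 16 gave 0 genes (2320 at an unadjusted p under 0.05), as did leaving out mouse 28 (2802). With mouse 23 or mouse 19 omitted 12 and 39 genes passed, and with mouse 30 or 17 omitted 364 and 503. The fit lacking mouse 21 gave 2378. Ribosomal protein genes held 4.64, 5.55 and 4.96% of FPKM in the 3 mice and 5.77 to 6.80% in the other 4, ranges that did not overlap, and their part in the result was not tested. Mitochondrially encoded genes held 9.09 to 11.4% of counts in the 3 mice and 9.50 to 17.1% in the other 4, and these ranges overlapped. The length trend above was taken over the 3 mice only, and the part of transcript length in this comparison was not tested.

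Of 16 tested macrophage genes, 7 were higher, and the list median was 1.73 on the log2 scale against 0.02 over all genes. The list was drawn up with results known, so neither value is a test of it. Vcam1, which macrophages of the spleen carry on their surface, was at 1.17, 1.57 and 1.73 FPKM, against 0.26 and 0.11 in mice 21 and 23 and 0.24 and 0.15 in mice 28 and 30. The groups did not overlap. The difference was 2.95 on the log2 scale (SE 0.33, edgeR adjusted p 0.0184), and 5 of 7 fits that left out a library kept the call. Mertk, the receptor for dying cells, was at 0.25, 0.28 and 0.30 FPKM against 0.03 to 0.06 (2.85, SE 0.45, edgeR adjusted p 0.0270). Hmox1, which breaks down haem, was at 3.21, 4.03 and 4.62 FPKM against 0.83 to 1.43 (1.67, SE 0.28, edgeR adjusted p 0.0285). The calls of Mertk and Hmox1 were kept in 3 of the 7 fits each. Mrc1, Cd163, Cd5l and Hpgd, all of the low class, were also higher in the knockdown PBS mice by the same test. The whole list summed to 33.5 to 50.7 FPKM in the 3 mice, 9.75 to 23.2 in the other 4 and 19.9 in the primary mouse.

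Of 15 tested mast cell and basophil genes, 5 were lower, with a list median of −1.08, and the same limit holds for this list. Fcer1a was at 33.4, 65.6 and 50.2 FPKM against 220 and 351 in mice 21 and 23 and 151 and 92.9 in mice 28 and 30. No knockdown PBS mouse reached the lowest of those 4 (log2 fold change −1.91, SE 0.28, edgeR adjusted p 0.0252, kept in 3 of 7 fits). Mouse 12, which was not in the fit, had 38.8 FPKM and lay with the knockdown PBS mice. Cma1 was lower by 1.36 (SE 0.25, edgeR adjusted p 0.0301) and Il4 by 0.94 (SE 0.17, edgeR adjusted p 0.0301), also kept in 3 of 7 fits. Il4 was at 6.35 to 7.01 FPKM in the 3 mice and 11.8 to 13.9 in the other 4. Cpa3 and Hdc were lower as well, whereas Ms4a2 had a log2 fold change of −0.54 (SE 0.35, edgeR adjusted p 0.331). The list summed to 367, 354 and 349 FPKM in the 3 mice, 493 to 891 in the 4 others and 925 in mouse 12.

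**Figure D5:**
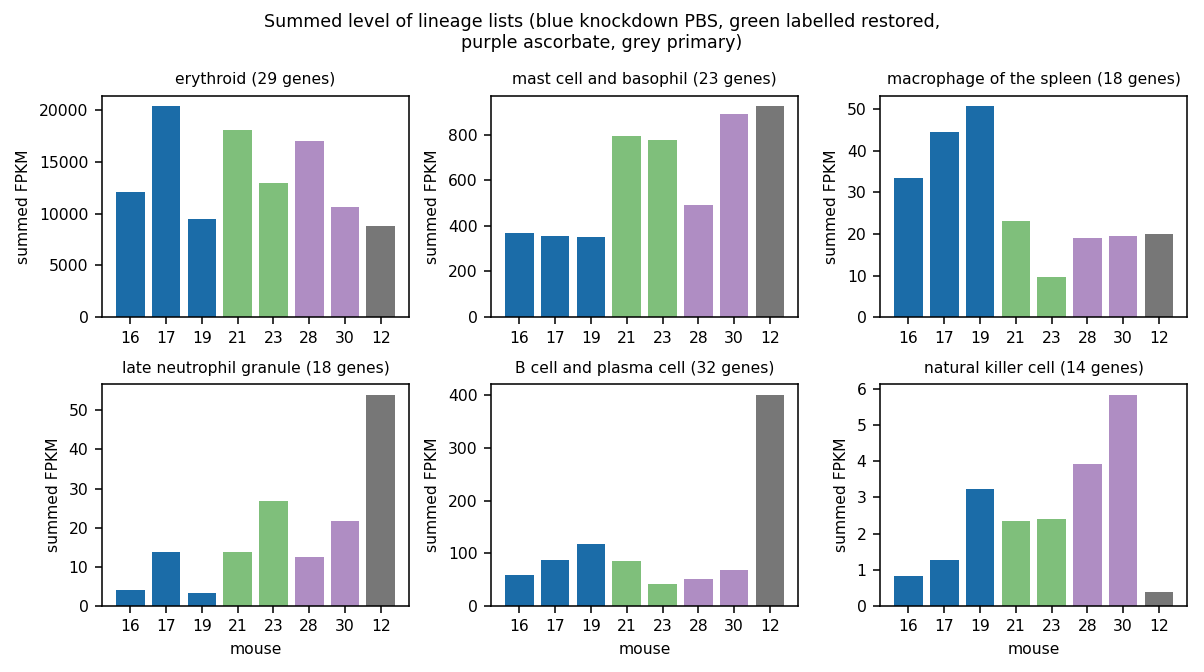
Summed FPKM of 6 lineage lists in each of the 8 libraries, as 1 bar a mouse. Macrophage sums of mice 16, 17 and 19 (33.5 to 50.7) exceed those of the other 5, mast cell sums (349 to 367) lie below them, and the late neutrophil and B cell sums are highest in mouse 12.

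Among 170 tested transcription factors 5 were higher and 5 lower, a share close to that of all genes. Spi1 was at 23.8, 33.9 and 31.4 FPKM against 49.99 to 65.02 (log2 fold change −0.90, SE 0.16, edgeR adjusted p 0.0287), and mouse 12 had 22.2. Hoxb3 was lower by the same test, with 0.39, 0.40 and 0.47 FPKM against 0.87 to 1.58, and so were Hoxb4, Usf1 and Ddit3, the stress factor CHOP (13.3 to 16.2 against 22.4 to 30.7). Each of Spi1 and Hoxb3 kept its call in 3 of 7 fits and Ddit3 in 2. Most exonic bases of Hoxb3 are shared with another gene, so its value is uncertain. Myc, Cebpg, Fosb, Nfya and Tcf7l2 were the 5 that were higher, and Myc was at 124 to 155 FPKM against 55.7 to 138, so its groups overlapped. Of the 16 GATA, TAL1 and KLF1 factors, Gfi1b had the smallest adjusted p, which missed the threshold (log2 fold change 0.69, SE 0.19, edgeR adjusted p 0.0578). Of 174 surface proteins 5 were higher and 7 lower, again close to the 6.83% of all genes.

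Calls in the remaining lineage lists were few. Of 28 tested erythroid genes 2 were higher, against 4.19% of all genes, and no more is read from this count. They were Ermap, a blood group protein, at 128, 94.4 and 92.9 FPKM against 39.8 to 72.9, and the spectrin Sptb at 109, 98.6 and 73.0 against 29.4 to 63.3. Each call was kept in 1 of 7 fits. Prtn3 and Cst7 were lower among 11 primary granule genes, with Prtn3 at 1.04 to 1.64 FPKM against 3.21 to 5.03. Of all genes 2.64% were lower, and no more is read from the count of this list. Fn1 (fibronectin) was the 1 monocyte gene to pass and was lower, at 0.12 to 0.18 FPKM against 0.39 to 0.84. Ccr3, Fcmr and Col1a1 each passed as the only member of the eosinophil, B cell and stromal lists, all higher and all under 1 FPKM. The calls of Prtn3, Fn1 and Col1a1 were kept in 3 of 7 fits each, and those of Cst7, Ccr3 and Fcmr in 1 each. Kit had a log2 fold change of 0.36 (SE 0.32, edgeR adjusted p 0.478) and Runx1t1 one of −0.72 (SE 0.21, edgeR adjusted p 0.0594). Of the 20 variable genes, Tnni3, an uncertain value as said above, was lower (−3.34, SE 0.71, edgeR adjusted p 0.0439). Hspa1b was higher (2.93, SE 0.57, edgeR adjusted p 0.0339), and no knockdown PBS mouse overlapped the other 4 for either gene.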

How the data were processed

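A table of whole-number read counts by gene symbol and a matching table of FPKM with 2 decimals were deposited by the authors, per the file headers. The submitters' processing notes list STAR, featureCounts, DESeq2 and mm10 (GRCm38). Tool versions, settings and strand are not given in the sources used here. Without a strand setting, reads of overlapping genes cannot be told apart, and 21 of 90 named genes share exonic bases with another gene of GENCODE vM21. Symbols of 26 rows had become dates. Libraries were made from oligo-dT-enriched RNA with the NEXTflex kit, per the labels.

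Levels are the deposited FPKM, summarised with pandas 2.3.3. Transcript length was recovered from count over FPKM. Variation is log2 of (highest + 0.1) over (lowest + 0.1) FPKM for genes with a mean of at least 5. The comparison used edgeR 4.0.16 (R 4.3.3): robust quasi-likelihood fit of 7 libraries in 3 groups, TMM factors, filterByExpr (minimum count 10), Benjamini-Hochberg threshold 0.05. The scripts were tested on simulated data. Alternatives were DESeq2 1.42.0, limma 3.58.1, other scalings and filters, and each library left out. The 3-count limit behind a value of 0 is one of counting error alone.

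Named by rule were the 20 most abundant genes (mitochondrial and ribosomal protein genes set aside), transcription factors and surface proteins, the 3 highest and all silent members of each lineage list, the 5 markers, the 20 most variable genes, and up to 3 called members a list. Predicted genes and receptor segments were only counted. Some members of the lists are not reported here by name. Further members, and the division of the panels by role, were chosen after their values were seen. All members and lists were chosen with earlier results of these data known. The symbols Evi1, Cd97, Azu1, Ahsp and Mpig6b were not matched.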

Additional observations from a re-analysis of the deposited data

How the results depend on the processing

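Means of the levels named were retaken without 1 of the 3 libraries (255 values). Such a mean cannot move by as much as its SD, so stability was not tested in this way. The mean of Adgrg7, for example, went from 5.72 to 0.905 FPKM without mouse 16. The fold changes of 17 named genes kept their direction in all 228 alternative values, 89 of which no longer passed the threshold. These 17 were picked as called in the same comparison, with no overlap between the groups, so their kept direction is no independent support. The count of silent members, 166, became 281 under 0.5 FPKM and 44 at 0 counts. Genes over 2-fold, 149 in the main setting, numbered 491 with a mean of at least 1 FPKM, 77 with a mean of at least 10, and 51 to 103 with 1 of the 3 libraries left out. The 829 genes of the comparison became 2237 with the Wald test of DESeq2, 2453 without a filter on low counts and 197 with the other 4 libraries as 1 group. With each library left out it ran from 0 (without mouse 16 or 28) to 2378 (without mouse 21), and where 1 library of a pair remained it was assumed to vary like the rest. The cause of these changes was not tested. No paired analysis was possible because each mouse number occurs in 1 group only. Depth limits the lowest genes: the highest count of a silent member in the 3 libraries had a median of 2.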

Other observations

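Some values stood outside the comparisons. Cd63, a tetraspanin of lysosomes and mast cell granules that most cells express, had 3, 2 and 2 counts in mice 16, 17 and 19 and 1 to 6 counts in the other 5 libraries. Mir6236 was at 6021 FPKM in mouse 12 and 819 to 2500 in the 7 secondary libraries. Igkc was at 335 FPKM in mouse 12, against 16.5, 40.9 and 61.4 in the knockdown PBS mice. Cpa3 was at 132 FPKM in mouse 12, Cd34 at 2.72 and Mpo at 1.86, each above the 3 knockdown PBS mice, and this library has no replicate.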
